A study of Homo sapiens with 12 samples.

Results

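Interferon-stimulated genes and class I HLA genes were followed in tumours of Hep3B, a human hepatocellular carcinoma cell line, treated with bufotalin. Bufotalin is a steroid of the bufadienolide class, first known from toad venom. The genes were OAS3, IFIT2 and HLA-C together with every other gene of the mRNA table whose name begins with OAS, IFIT, IFI and a digit, or HLA-. This gave 12 of the 4988 genes in the table, among them OAS3, OASL, IFIT1, IFIT2, IFITM2, IFI27L2, IFI35, IFI30, HLA-B, HLA-C and HLA-F. The compared groups were bufotalin-treated Hep3B xenografts (3 libraries) and control Hep3B xenografts (3 libraries), all of total RNA. The sample labels name the tissue as xenograft, while the design text of the series speaks of Hep3B cells. The sources used here do not give the dose, its duration, the host strain or what control animals received.

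The deposited values are FPKM, fragments scaled by gene length and by the size of the library, and their depth is unknown, so no interval for counting error can be given. The mRNA values of the table added up to 114207 to 121337 FPKM in bufotalin libraries and 102677 to 105803 FPKM in control libraries. The authors' table is named for genes that differ, so the background of changed genes is high and the absence of a gene from it says nothing about its level. Of 21 listed liver markers, 2 were in the table, and one of them, TF, had 0.00148 to 0.0402 FPKM in bufotalin libraries and was listed at 0 in all control libraries. The label of a liver tumour line could thus not be checked on albumin or alpha-fetoprotein, which were not analysed here. The labels do not state that the libraries came from separate animals, and p-values then measure only how far these samples scatter, which may be technical.

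Type I interferons act through a cell surface receptor and the kinases JAK1 and TYK2, which activate STAT proteins, among them STAT2. Together with IRF9 these bind the interferon-stimulated response element in promoters of antiviral genes, while interferon gamma acts mainly through a second element, the gamma-activated site. Among the induced products are sensors and effectors that act on viral RNA, and the machinery that loads peptides on class I HLA molecules for display to cytotoxic T cells. In hepatocellular carcinoma this display decides how visible tumour cells are to T cells.

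Of the 12 genes, 11 had a lower mean after bufotalin and 1, IFI30, had a higher one, and in all 12 the groups did not overlap. Over the whole table the groups stood apart in the lower direction for 51.7% of genes and in the higher direction for 40.7%. On log2(FPKM + 1), limma tested 10 of the 12, those with a mean of at least 0.5 FPKM over the 6 libraries, with p-values adjusted over all 4273 genes tested (Benjamini-Hochberg, threshold 0.05). It called 9 of them lower and 1 higher, against 48.8% of all tested genes called lower and 44.3% called higher. Nearly every gene of the table was thus called one way or the other, and that these genes were called is no result about them. IFIT2, IFI27L2 and HLA-F reached the minimum only through their control values, so for these 3 a call was built into the filter. Without a minimum all 12 were tested, with 11 called lower and 1 higher. The 10 log2 fold changes tested with the minimum, those of IFIT2, IFI27L2 and HLA-F included, had a median of -0.97. The median over all tested genes was 0.13. Without a minimum these medians were -0.87 and -0.14. In bulk tissue, fewer cells of a kind and less RNA per cell cannot be told apart.

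**Figure D1:**
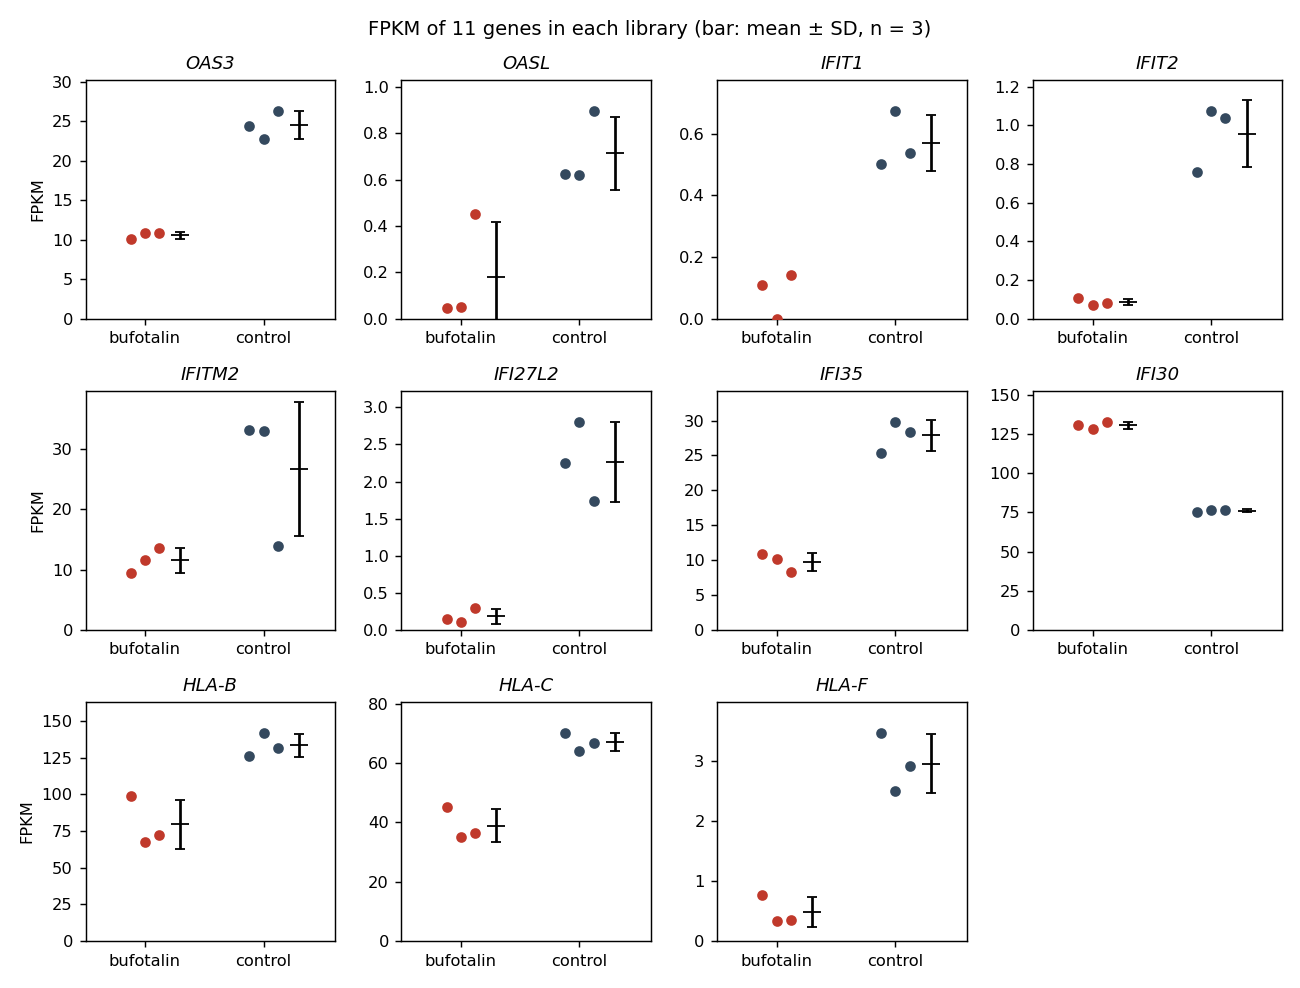
FPKM (vertical axes, each from 0) of 11 of the genes in the 3 bufotalin libraries (red, left) and the 3 control libraries (dark, right), with mean ± SD beside the points where no library was listed at 0; SD bars are cut at 0. The bufotalin points lie below the control points in 10 genes and above them in IFI30, and in IFITM2 the lowest control library, at 13.9 FPKM, lies beside the highest bufotalin library, at 13.6 FPKM.

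The OAS enzymes sense double-stranded RNA and make oligoadenylates, which set off the decay of RNA in the cell. OAS3 (ENSG00000111331, chromosome 12, 112938444 to 112973251 on GRCh38) had 10.1, 10.8 and 10.8 FPKM in bufotalin libraries, against 24.4, 22.8 and 26.3 FPKM in control libraries. The treated libraries lay close together and all were under the lowest control library. OAS3 averaged 10.6 ± 0.439 FPKM in bufotalin and 24.5 ± 1.77 FPKM in control libraries (SD, n = 3 each), 2.32-fold lower after bufotalin, with a log2 fold change of -1.14 (SE 0.11, adjusted p = 1.18e-05 by limma). Its log2 fold change was -1.19 to -1.09 when each library was left out in turn.

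OASL, an OAS relative without synthetase activity that enhances signalling of the RNA sensor RIG-I, was far lower in abundance (chromosome 12, 121019111 to 121069379). It had 0.0451, 0.0495 and 0.451 FPKM in bufotalin libraries, against 0.623, 0.621 and 0.897 FPKM in control libraries. Bufotalin replicate 3 stood well above the other treated libraries and still below all controls. OASL fell short of the minimum of 0.5 FPKM. Without that minimum it was called lower (log2 fold change -0.55, adjusted p = 0.00505 by limma), while its exact two-sided permutation test over libraries gave p = 0.1, the smallest that 3 against 3 allows.

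The sequence upstream of OAS3 is shown because it holds the response element named above. The element was searched as GAAA, a spacer of 2 bases and GAAA, on both strands, in RefSeq windows of 250 bases before to 50 bases after each gene's start (GRCh38.p14). The OAS3 window has 2 matches, at -143 to -134 and at -12 to -3 from the start. Its 250 upstream bases lie at chr12:112938224-112938473, plus strand, and the capitals mark the matches.
OAS3: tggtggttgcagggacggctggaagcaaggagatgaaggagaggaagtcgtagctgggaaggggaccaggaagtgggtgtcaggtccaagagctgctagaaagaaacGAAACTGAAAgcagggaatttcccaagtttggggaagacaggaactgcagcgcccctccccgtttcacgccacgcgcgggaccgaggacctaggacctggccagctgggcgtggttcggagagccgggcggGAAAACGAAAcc

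IFIT proteins bind viral RNA ends and block their translation. IFIT2 (ENSG00000119922, chromosome 10, 89283694 to 89309271) had 0.106, 0.0732 and 0.0790 FPKM in bufotalin libraries, against 0.757, 1.08 and 1.04 FPKM in control libraries. All treated libraries were within a narrow range near 0, and no control library came near it. IFIT2 averaged 0.0862 ± 0.0177 FPKM in bufotalin and 0.957 ± 0.174 FPKM in control libraries (SD, n = 3 each), 11.1-fold lower after bufotalin. Its log2 fold change was -0.85 (SE 0.10, adjusted p = 4.44e-05 by limma), a value that understates the change of a gene this low. With a pseudocount of 0.01 it was -3.33, and under quantile normalization -0.42. IFIT2 reached the minimum only through its control values, so its call was built into the filter.

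IFIT1 lies beside IFIT2 (chromosome 10, 89392546 to 89406487) and had 0.108, 0 and 0.142 FPKM in bufotalin libraries, against 0.502, 0.674 and 0.537 FPKM in control libraries. Bufotalin replicate 2 was listed at 0, and the groups did not overlap. IFIT1 fell short of the minimum, and without it was called lower (log2 fold change -0.54, adjusted p = 0.000207 by limma); the exact permutation test gave p = 0.1. The listed loci of IFIT1 and IFIT2 both lie inside that of LIPA, the gene of lysosomal acid lipase, and the sources used here do not say whether counting used strand. LIPA had 11.0, 8.89 and 11.3 FPKM in bufotalin libraries, against 27.3, 27.4 and 34.8 FPKM in control libraries. LIPA was thus lower too, by 2.87-fold, and its share in the reads of IFIT1 and IFIT2 was not tested.

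The window of IFIT1 is shown because its matches lie side by side, at -116 to -107 and -103 to -94 from the start, both on the reverse strand. Its upstream bases lie at chr10:89392373-89392622, plus strand, with the matches in capitals.
IFIT1: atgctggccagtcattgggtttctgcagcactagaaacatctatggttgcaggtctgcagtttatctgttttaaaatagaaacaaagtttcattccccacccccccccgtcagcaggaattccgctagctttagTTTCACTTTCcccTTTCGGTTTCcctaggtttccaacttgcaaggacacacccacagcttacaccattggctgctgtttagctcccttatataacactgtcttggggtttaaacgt

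IFITM2, a membrane protein that blocks the entry of enveloped viruses, had uneven control values (ENSG00000185201, chromosome 11, 307631 to 315272). It had 9.46, 11.6 and 13.6 FPKM in bufotalin libraries, against 33.2, 32.9 and 13.9 FPKM in control libraries. Control replicate 3 stood beside the treated libraries, far from the other controls. The log2 fold change was -1.06 (SE 0.33, adjusted p = 0.0177 by limma). The call ended after scaling libraries to equal medians (-0.72, adjusted p = 0.0659) and without bufotalin replicate 1 or 2 or control replicate 1 or 2, and without control replicate 3 the log2 fold change was -1.46. The listed locus of IFITM2 also spans IFITM1, a close relative, and reads of the IFITM genes may be shared between copies, so the value of IFITM2 alone is uncertain.

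The genes named IFI and a digit share a name, not one function, and whether interferon induces each of them was not tested here. IFI35, a leucine zipper protein that binds the interferon-induced NMI, had 10.8, 10.1 and 8.36 FPKM in bufotalin libraries, against 25.4, 29.8 and 28.4 FPKM in control libraries (ENSG00000068079, chromosome 17, 43006725 to 43014456). All treated libraries were far under the lowest control library. IFI35 averaged 9.76 ± 1.27 FPKM in bufotalin and 27.9 ± 2.24 FPKM in control libraries (SD, n = 3 each), 2.86-fold lower, with a log2 fold change of -1.43 (SE 0.13, adjusted p = 8.24e-06 by limma). IFI27L2, a small relative of the mitochondrial protein IFI27, had 0.146, 0.107 and 0.296 FPKM in bufotalin libraries, against 2.25, 2.80 and 1.73 FPKM in control libraries (chromosome 14, 94127779 to 94130253). Treated values were near 0 and the groups were far apart: the gene was 12.3-fold lower after bufotalin, with a log2 fold change of -1.45 (SE 0.14, adjusted p = 1.15e-05 by limma). That value was -3.65 with a pseudocount of 0.01 and -0.84 under quantile normalization. IFI27L2 reached the minimum only through its control values, so its call was built into the filter.

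IFI35 had no match of the interferon-stimulated element in its window, and 1 match, at -22 to -14, of the gamma-activated site, searched as TTC, a spacer of 3 bases and GAA, which reads the same on both strands. Its upstream bases lie at chr17:43006534-43006783, plus strand, and are shown with that match in capitals.
IFI35: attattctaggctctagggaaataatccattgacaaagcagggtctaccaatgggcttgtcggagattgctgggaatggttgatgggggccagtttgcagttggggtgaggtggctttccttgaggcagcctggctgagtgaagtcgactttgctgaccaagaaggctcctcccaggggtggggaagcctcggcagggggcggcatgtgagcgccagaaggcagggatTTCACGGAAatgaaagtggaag

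IFI30 went the other way. It encodes GILT, the gamma-interferon-inducible lysosomal thiol reductase, which unfolds proteins taken up by the cell so that their peptides can reach class II HLA molecules. IFI30 (ENSG00000216490, chromosome 19, 18173162 to 18178117) had 131, 128 and 133 FPKM in bufotalin libraries, against 75.002, 76.9 and 76.7 FPKM in control libraries. The libraries of each group were nearly alike and the groups far apart. The gene averaged 131 ± 2.33 FPKM in bufotalin and 76.2 ± 1.03 FPKM in control libraries (SD, n = 3 each), 1.71-fold higher, with a log2 fold change of 0.77 (SE 0.10, adjusted p = 7.59e-05 by limma). It was called higher in every one of the 14 alternative settings, at 0.52 under quantile normalization and 1.12 after scaling to equal medians.

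**Figure D2:**
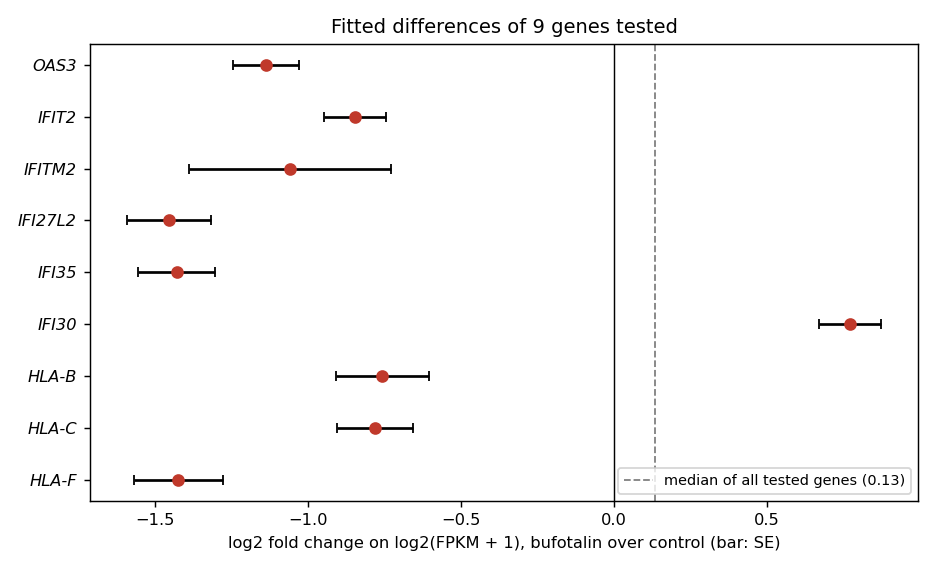
Fitted log2 fold change on log2(FPKM + 1), bufotalin over control (horizontal axis), of 9 of the genes tested, with SE as bars; the dashed line is the median of all tested genes, 0.13. IFI30 stands at 0.77, and the other genes lie between -1.45 and -0.76. IFIT2, IFI27L2 and HLA-F reached the minimum only through their control values.

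HLA-B and HLA-C encode heavy chains of classical class I molecules, which pair with beta-2-microglobulin. HLA-C (ENSG00000204525, chromosome 6, 31268749 to 31272130) had 45.2, 35.0 and 36.3 FPKM in bufotalin libraries, against 70.0, 64.1 and 66.9 FPKM in control libraries. All treated libraries were under the lowest control, and bufotalin replicate 1 was the highest of the treated ones. HLA-C averaged 38.8 ± 5.56 FPKM in bufotalin and 67.0 ± 2.95 FPKM in control libraries (SD, n = 3 each), 1.73-fold lower, with a log2 fold change of -0.78 (SE 0.12, adjusted p = 0.000251 by limma).

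HLA-B had 98.7, 67.8 and 72.1 FPKM in bufotalin libraries, against 126, 142 and 132 FPKM in control libraries (chromosome 6, 31269491 to 31357188). It was 1.68-fold lower, with a log2 fold change of -0.76 (SE 0.15, adjusted p = 0.00103 by limma). In HLA-B as in HLA-C, bufotalin replicate 1 was the highest treated library, and the groups did not overlap. After scaling to equal medians, which moved the median of all tested genes to 0.49, the log2 fold changes of HLA-B and HLA-C were -0.40 and -0.43, still past the test.

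HLA-F, a non-classical class I gene, was low, with a ratio of group means further from 1 than those of HLA-B and HLA-C. It had 0.766, 0.341 and 0.344 FPKM in bufotalin libraries, against 3.47, 2.50 and 2.92 FPKM in control libraries (ENSG00000204642, chromosome 6, 29722775 to 29748959). It was 6.13-fold lower, with a log2 fold change of -1.42 (SE 0.14, adjusted p = 1.77e-05 by limma). That value was -2.68 with a pseudocount of 0.01 and -0.72 under quantile normalization. HLA-F reached the minimum only through its control values, so its call was built into the filter. The lncRNA table lists 1 transcript of these genes, HLA-F-226 (ENST00000484704, chromosome 6, 29724157 to 29726526), which was listed at 0 in all 3 bufotalin libraries, against 0.375, 0.214 and 0.132 FPKM in control libraries. HLA-F-226 has an exact permutation p of 0.1 over the 6 libraries, again the smallest possible.

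Reads of class I genes are alike between copies, and the listed locus of HLA-B covers 2640 bases of that of HLA-C, so how the authors' counting divided reads between HLA-B and HLA-C is uncertain. The class II genes, HLA-E and HLA-G were not analysed here.

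Upstream windows of HLA-C and HLA-F are shown together. The first has no exact match of the letters searched, and the second has 1, at -156 to -147 on the reverse strand, in capitals. The search allowed no other letters, so a variant of the element in the HLA-C window would be missed. The windows lie at chr6:31272093-31272342, minus strand, for HLA-C and chr6:29723184-29723433, plus strand, for HLA-F.
HLA-C: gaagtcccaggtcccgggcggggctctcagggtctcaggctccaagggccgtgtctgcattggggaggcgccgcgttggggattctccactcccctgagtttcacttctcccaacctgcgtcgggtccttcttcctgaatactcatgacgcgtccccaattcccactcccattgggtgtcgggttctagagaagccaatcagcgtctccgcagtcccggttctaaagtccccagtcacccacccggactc
HLA-F: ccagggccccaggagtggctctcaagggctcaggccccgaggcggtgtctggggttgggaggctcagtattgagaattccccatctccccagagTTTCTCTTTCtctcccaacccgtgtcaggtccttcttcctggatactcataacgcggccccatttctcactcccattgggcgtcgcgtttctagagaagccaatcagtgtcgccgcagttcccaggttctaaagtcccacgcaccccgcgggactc

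Promoter windows were at hand for 8 of the 12 genes, and 3 of these 8 windows held the interferon-stimulated element (OAS3, IFIT1 and HLA-F), beside 3.57% of all 35116 windows and 2.59% of the 5599 windows of genes in the mRNA table. The gamma-activated site was in 1 of the 8 (IFI35), beside 7.66% of all windows. The windows of HLA-B, HLA-C, IFI27L2 and IFI30 held neither set of letters. A match describes the letters only and says nothing of binding in these tumours. The search took exact letters, so a window without a match may still hold a variant of an element.

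Of 19 listed genes of interferon signalling, 8 were in the table, and 4 fell and 4 rose, shares close to the 48.8% and 44.3% called lower and higher over all tested genes. JAK1, the kinase bound to the receptor, fell to 13.3, 12.9 and 14.4 FPKM in bufotalin libraries, against 34.7, 35.7 and 38.2 FPKM in control libraries (log2 fold change -1.35, SE 0.11, adjusted p = 4.26e-06 by limma). The receptor subunit gene IFNAR2 averaged 5.22 ± 0.472 FPKM in bufotalin and 9.86 ± 1.01 FPKM in control libraries (-0.80), and STAT2 3.78 ± 0.102 FPKM in bufotalin and 7.23 ± 1.08 FPKM in control libraries (-0.78). USP18, itself interferon-induced and a brake on the receptor, averaged 3.03 ± 0.259 FPKM in bufotalin and 7.69 ± 1.32 FPKM in control libraries (-1.10). The genes that rose were the interferon gamma receptor subunit IFNGR1 (0.43), the phosphatase PTPN11 (0.39), and SOCS1 (0.57) and PIAS1 (0.34), inhibitors of this signalling. SOCS1 was not called without bufotalin replicate 2 (0.54), bufotalin replicate 3 (0.39) or control replicate 1 (0.48). PIAS1 was not called without bufotalin replicate 3 (0.295), control replicate 2 (0.35) or control replicate 3 (0.24), and PTPN11 not under quantile normalization (0.15). Under that normalization STAT2 was at -0.34, USP18 at -0.64 and IFNAR2 at -0.51, and after scaling to equal medians STAT2 was at -0.48, IFNAR2 at -0.49 and IFNGR1 at 0.75, all still called.

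None of the 21 listed genes that encode interferons was analysed here. Among 36 listed names of nucleic acid sensors and their adaptors, 13 were in the table and 10 were tested, with 5 lower, 4 higher and 1, TRAF3, not called (-0.19), again close to the shares over all tested genes. MAVS, the mitochondrial adaptor of the RNA sensors, averaged 3.52 ± 0.281 FPKM in bufotalin and 6.94 ± 0.865 FPKM in control libraries (log2 fold change -0.81, SE 0.12, adjusted p = 0.000169 by limma). RNF135, a ubiquitin ligase of RIG-I, fell too (-1.03), as did the ribonuclease H subunits RNASEH2A (-0.85) and RNASEH2B (-0.42). RNASEH2B was not called after scaling to equal medians (-0.09), under quantile normalization (-0.23), or without bufotalin replicate 2 (-0.33), bufotalin replicate 3 (-0.35) or control replicate 2 (-0.37). DDX58, the gene of RIG-I, which lies under the 1 FPKM set for naming and reached the minimum only through its control values, had 0.419, 0.384 and 0.379 FPKM in bufotalin libraries, against 0.955, 1.06 and 0.851 FPKM in control libraries (-0.49), with the opposite sign and no call under quantile normalization (0.16). The DNA sensor CGAS rose, with 19.9 ± 1.46 FPKM in bufotalin and 15.2 ± 1.04 FPKM in control libraries (0.37), and so did the signalling genes TRAF6 (0.49), TICAM1 (0.41) and TBK1 (0.25). TBK1 was not called without bufotalin replicate 2 or 3 or without control replicate 1, 2 or 3 (0.22 to 0.27), nor with the replicate number as a block (adjusted p = 0.0551 by limma). MAVS, RNF135 and TRAF6 were at -0.34, -0.62 and 1.04 under quantile normalization, and after scaling to equal medians MAVS, RNASEH2A, CGAS, TICAM1 and TRAF6 were at -0.51, -0.50, 0.71, 0.75 and 0.77, all still called. Of this list, 8 were called lower with no FPKM minimum and 3 under quantile normalization.

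Other interferon-stimulated genes were mostly lower. Of 62 listed names 17 were in the table and 12 were tested, with 11 lower and 1 higher. Over all tested genes the shares were 48.8% lower and 44.3% higher. Of the 11, HERC6, DDX60 and DDX60L reached the minimum only through their control values, so their calls were built into the filter and add nothing to the count. HERC6, a relative of the ISG15 ligase HERC5, averaged 0.0995 ± 0.0543 FPKM in bufotalin and 2.29 ± 0.646 FPKM in control libraries (log2 fold change -1.57, and -4.50 with a pseudocount of 0.01). LGALS3BP, a secreted glycoprotein, averaged 0.796 ± 0.361 FPKM in bufotalin and 5.16 ± 0.688 FPKM in control libraries (-1.79). HELZ2 (-1.70), a helicase, and PARP9 (-1.39) and DTX3L (-1.29), which act as a pair in ADP-ribosylation and ubiquitination, fell as well. HERC5, the ligase that attaches ISG15 to proteins, rose, with 19.6, 21.5 and 20.3 FPKM in bufotalin libraries, against 13.2, 13.1 and 11.7 FPKM in control libraries (0.65, SE 0.11, adjusted p = 0.000312 by limma). HERC5 and HERC6 are close relatives, and their changes had opposite signs. The 12 tested genes, HERC6, DDX60 and DDX60L among them, had a median of -1.26. Under quantile normalization it was -0.79, with LGALS3BP, HELZ2 and PARP9 at -1.15, -1.04 and -0.76.

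The list of antigen processing and presentation holds proteasome and peptide-loading genes, regulators of HLA genes and ligands of other immune receptors. Of its 32 names 10 were in the table and 8 were tested, with 7 lower and 1 higher. Beside this, 48.8% of all tested genes were called lower and 44.3% higher. PSMB9, a catalytic subunit of the immunoproteasome, had 1.21, 0.741 and 0.829 FPKM in bufotalin libraries, against 6.98, 8.003 and 8.66 FPKM in control libraries (log2 fold change -2.21, SE 0.13, adjusted p = 1.71e-06 by limma). PSMB10, another such subunit, averaged 2.71 ± 0.768 FPKM in bufotalin and 8.81 ± 2.23 FPKM in control libraries (-1.39), and PSME1, of the proteasome activator, 14.8 ± 1.65 FPKM in bufotalin and 50.99 ± 3.93 FPKM in control libraries (-1.72). RFX5, part of the complex that binds class I and class II promoters, averaged 9.12 ± 0.765 FPKM in bufotalin and 30.2 ± 1.797 FPKM in control libraries (-1.62). ULBP2, a ligand for an activating receptor of natural killer cells, fell as well (-1.02), with no call under quantile normalization (-0.31). CALR, the chaperone calreticulin of the peptide-loading complex, had 169, 277 and 252 FPKM in bufotalin libraries, against 163, 158 and 126 FPKM in control libraries (0.62, SE 0.19, adjusted p = 0.0135 by limma). Its treated values were uneven, and the call was lost under quantile normalization (0.27) and without bufotalin replicate 3 (0.55).

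**Figure D3:**
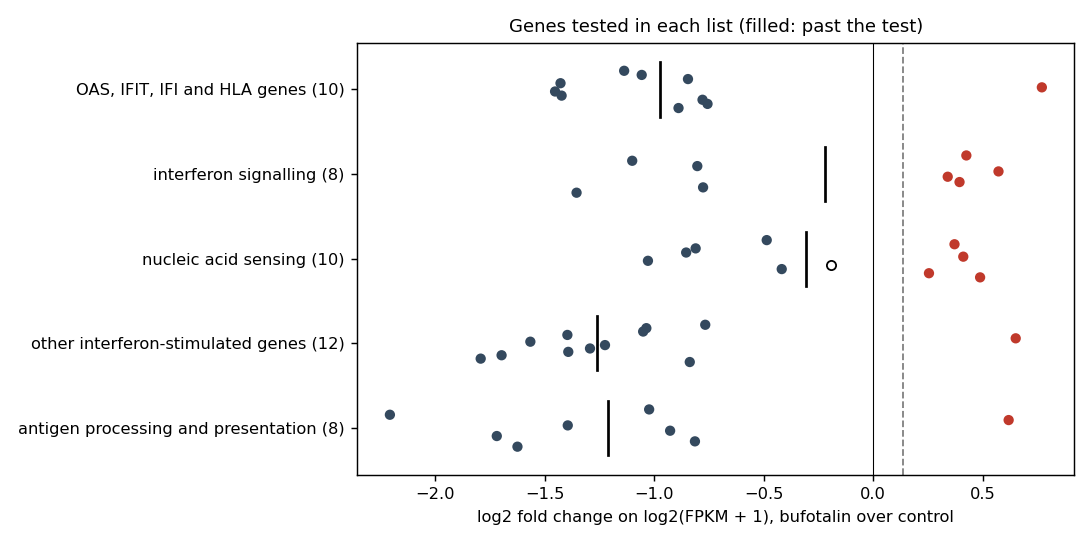
Log2 fold change on log2(FPKM + 1), bufotalin over control (horizontal axis), of each tested gene (point) by list, with the list's median as a black bar and the median of all tested genes, 0.13, as a dashed line. Filled points passed the test (red higher, dark lower), and the open point is TRAF3. The signalling and sensing lists lie on both sides of 0, while the other 3 lists lie mostly below it. IFIT2, IFI27L2, HLA-F, DDX58, HERC6, DDX60 and DDX60L reached the minimum only through their control values and are not marked apart.

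These lists, like the 12 genes, were drawn up with earlier results of the same libraries known, so their counts are a description. Markers of other cells are given beside them. All values are of human genes, so cells of the host animal could enter them only through reads that also match human genes. Of 27 listed leukocyte markers 4 were in the table, and their summed level was 4.61 to 6.82 FPKM in bufotalin libraries and 3.29 to 3.72 FPKM in control libraries, most of it CSF1R (4.99 ± 1.06 FPKM in bufotalin and 3.31 ± 0.150 FPKM in control libraries). CD14 had 0.522 to 0.728 FPKM in bufotalin libraries and 0 to 0.0758 FPKM in control libraries, and LAPTM5 and ITGAM were listed at 0 in all bufotalin libraries, with 0.108 to 0.211 FPKM and 0.0254 to 0.0703 FPKM in control libraries. Of 17 listed fibroblast markers 8 were in the table, and their sum was 23.9 to 29.8 FPKM in bufotalin libraries and 84.2 to 88.7 FPKM in control libraries, with all 7 tested ones called lower, among them COL5A1, COL6A1 and COL1A1 (log2 fold changes -1.77, -2.01 and -0.67). ACTA2 and PDGFRB, also among the 7, reached the minimum only through their control values. Of all tested genes, 48.8% were called lower. Of 12 endothelial markers, EGFL7 and CDH5 were in the table (-1.84 and 0.86). Their sum was 8.46 to 10.6 FPKM in bufotalin libraries and 32.2 to 33.7 FPKM in control libraries, most of it EGFL7. CDH5 had 0.746, 0.844 and 1.24 FPKM in bufotalin libraries, against 0.0888, 0.00702 and 0.101 FPKM in control libraries. It reached the minimum only through its bufotalin values, so its call was built into the filter. Whether these marker values came from tumour cells or from reads of the host animal was not tested. The part of other cells and of host reads in the interferon and HLA values was not tested either.

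The genes most like the 3 named ones were sought by Pearson's r of log2(FPKM + 1) over the 6 libraries. They were KIAA1147, CLMP and SDC3 for OAS3 (r = 0.9998, 0.9995 and 0.9993), CCDC71, CCDC159 and ACSM3 for IFIT2 (0.9986, 0.9978 and 0.9970), and EML2, CHKB and PAPLN for HLA-C (0.9976, 0.9963 and 0.9958). With 6 libraries in 2 separate groups and 4273 genes searched, such values describe a shared difference between groups, and all points share their libraries.

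**Figure D4:**
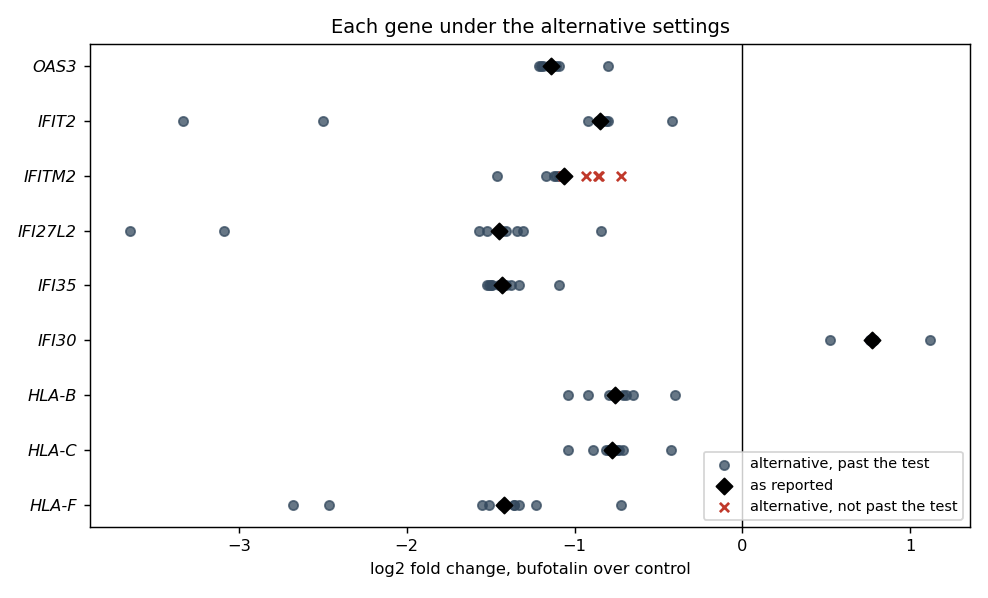
Log2 fold change, bufotalin over control (horizontal axis), of 9 of the tested genes as reported (diamond) and under up to 14 alternative settings (circle where past the test, cross where not). No gene changes sign, IFITM2 alone has crosses, and IFIT2, IFI27L2 and HLA-F reach -3.33, -3.65 and -2.68 with a pseudocount of 0.01. The last-named genes reached the minimum of 0.5 FPKM only through their control values.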

How the data were processed

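Total RNA of 6 Hep3B xenograft libraries was sequenced, 3 after bufotalin and 3 controls. The values are FPKM that the authors deposited in an mRNA and a lncRNA table of features that differ; the sources used here give neither the rule behind that selection nor the strandedness. The submitters' processing notes name CASAVA 1.8, fastp, HISAT2 2.0.5, featureCounts 1.5.0-p3, DESeq2 1.20.0 and the build GRCh38, with no role or order. The small RNA table was not used.

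From the deposited FPKM, log2(FPKM + 1) was fitted with limma 3.58.1 (R 4.3.3; trended, robust empirical Bayes; bufotalin over control) wherever the mean over the 6 libraries reached 0.5 FPKM. The p-values were adjusted by Benjamini-Hochberg over all 4273 genes tested, with a threshold of 0.05. An exact two-sided permutation test of the difference of means was run on all the interferon and HLA genes and on the lncRNA (numpy 2.4.6). Its p-value is printed for genes under the minimum and for the lncRNA. The fit was tested on simulated data. The same fit was repeated with pseudocounts of 0.1 and 0.01, other minimums, quantile normalization, scaling to equal medians, no trend, a replicate block and each library left out.

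The genes and lists were chosen with earlier results of these data known. Of the 12 genes, all but 1, which is not reported here, were described; of each list, up to 5 called genes per direction with the largest log2 fold change and a mean of at least 1 FPKM were named, up to 3 markers per marker list, and the 3 genes most like OAS3, IFIT2 and HLA-C. TRAF3, DDX58, DDX60, DDX60L, ACTA2, PDGFRB, LIPA, CD14, LAPTM5, ITGAM and TF were named after their values were seen, where outside that rule. Promoter windows came from RefSeq (GRCh38.p14); all 12 genes matched the gene reference by Ensembl ID.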

Additional observations from a re-analysis of the deposited data

How the results depend on the processing

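Of the 12 genes, the number called lower was 9 as reported, 11 with no FPKM minimum, 8 with a minimum of 1 FPKM, 9 under quantile normalization, 7 after scaling to equal medians, where IFIT2 also fell short of the minimum, and 8 to 9 when each library was left out in turn. The number called higher was 1 in each. Over all genes tested, 1598 to 2472 were called lower and 1658 to 2137 higher. The median log2 fold change of the interferon and HLA genes, -0.97 as reported, was -1.16 with pseudocounts of 0.1 and 0.01, -0.87 with no minimum, -1.06 with a minimum of 1 FPKM, -1.04 under quantile normalization, -0.72 after scaling to equal medians and -1.0 to -0.90 with a library left out. The median of all tested genes, 0.13, was -0.14 with no minimum, which adds low genes, 0.25 with a minimum of 1 FPKM and 0.49 after scaling to equal medians. Interferon signalling genes called higher numbered 2 to 4 with a library left out. Nucleic acid sensing genes called lower numbered 8 with no minimum and 3 under quantile normalization. Antigen processing genes called higher numbered 0 under quantile normalization by limma (0 at an unadjusted p under 0.05), and 0 to 1 with a library left out (1 at an unadjusted p under 0.05 without bufotalin replicate 3). Where not named, the cause was not tested. With the replicate number as a block, 9 of the interferon and HLA genes were called lower and 1 higher. Among the genes named TBK1 alone lost its call. Deviations of same-numbered libraries correlated at -0.017, 0.026 and -0.052. No pairing by number was visible in these values, but 3 libraries per group cannot exclude it. Depth is unknown, which limits what can be said of genes under 1 FPKM.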
